A study of Mus musculus with 12 samples.

Results

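The genes described here are 10 genes of the sperm acrosome, the sperm surface and the cytoskeleton beneath them: Acr, Acrbp, Acrv1, Actl7a, Actl7b, Adam3, Crisp2, Capza3, Eqtn and Prss21. They were picked by gene symbol, with earlier results of these data known, and all 10 genes had a probe on the arrays. Together they had 13 probes, of 20355 on the array, and made up 10 of the 14729 features that could be tested. RNA from mouse testis was compared on 12 two-colour cDNA arrays, on which 2 RNA samples labelled with Cy3 and Cy5 compete for the same spots. Per the labels, each RNA was a pool from 3 males on a Castaneus background, of 1 of 3 kinds: Wobbler modifier (wr/mod in the design text), Wobbler (wr/wr) and wildtype (wt). Each pair of kinds was hybridised on 4 arrays, 2 of them with the dyes exchanged. The labels say neither what the modifier is, nor the ages, nor whether Wobbler modifier males were homozygous for wr. A control reference pool that appears in the labelling protocol has no match among the channel labels, which were followed. The 4 arrays of a pair may or may not come from separate pools, so a p-value here measures how arrays vary, and that variation may be technical.

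The acrosome is a large vesicle that round spermatids build from the Golgi over the nucleus. It stores proteases and binding proteins that sperm use at the egg, and an actin-rich plate fixes it to the nuclear envelope. In Wobbler mice Vps54 carries a recessive point mutation. Its protein helps to catch vesicles that return from endosomes to the Golgi, and mutant males are sterile, with sperm heads that lack a normal acrosome. Vps54 itself was not analysed here.

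Actl7a and Actl7b, which encode actin-like proteins of spermatids, are neighbours on chromosome 4 and are read away from each other, and Acrv1, which encodes the acrosomal antigen SP-10, lies on chromosome 9. The bases before their starts are shown because Actl7a passed a test below and its neighbour Actl7b did not, while Acrv1 was negative on every modifier array. Each line is 250 bases ending just before the gene's start, 5′ to 3′ on the gene's own strand, from RefSeq (GRCm38.p6). In the first 2 the capitals mark the longest run that both share, and in the third they mark the motif TGTGTG on either strand, since GT repeats are known in the mouse Acrv1 promoter.
Actl7a, chr4:56743172-56743421, plus strand: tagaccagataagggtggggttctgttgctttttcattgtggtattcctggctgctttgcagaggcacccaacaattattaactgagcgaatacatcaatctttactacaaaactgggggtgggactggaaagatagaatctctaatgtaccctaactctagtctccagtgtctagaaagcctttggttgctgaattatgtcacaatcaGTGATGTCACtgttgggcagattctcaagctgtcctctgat
Actl7b, chr4:56741426-56741675, minus strand: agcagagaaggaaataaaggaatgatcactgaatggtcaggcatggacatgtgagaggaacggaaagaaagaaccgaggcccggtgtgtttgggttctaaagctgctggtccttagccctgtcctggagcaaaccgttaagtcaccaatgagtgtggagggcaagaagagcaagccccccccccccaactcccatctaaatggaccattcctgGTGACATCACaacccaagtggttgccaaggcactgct
Acrv1, chr9:36692970-36693219, plus strand: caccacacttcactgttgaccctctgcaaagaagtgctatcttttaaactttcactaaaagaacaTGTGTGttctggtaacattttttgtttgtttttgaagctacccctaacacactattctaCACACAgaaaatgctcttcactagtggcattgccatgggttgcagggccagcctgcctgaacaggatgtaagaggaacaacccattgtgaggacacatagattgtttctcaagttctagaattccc

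The shared run of the actin-like pair reads GTGATGTCAC in Actl7a, 41 to 32 bases before the start, and lies on the other strand in Actl7b, 37 to 28 bases before the start. Either strand counted, it was held by 217 of 32851 promoter windows in the table, or 0.661%. TGTGTG occurred at 2 places in the Acrv1 window and was held by 17.9% of all windows. TGACGT, the core of the cAMP response element, was found in 1 of the 6 genes with a window, Acrbp, and in 6.47% of all windows. These matches describe letters in a window and not binding.

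Values are log2 ratios, with the first-named genotype over the second, and a negative value means less transcript in the first. Arrays with exchanged dyes (replicates 3 and 4) were turned to the same direction, and that direction is only likely, from the array titles and the usual dye order. Each array had 18325 to 19584 usable spots. Ratios carry no level, so the tissue could not be checked against its markers. The arrays were noisy: over all probes, arrays of the same pair and dye orientation correlated at 0.0224 to 0.177 (6 pairs of arrays), and those of opposite orientation at -0.0904 to 0.0688. Replicate 2 of Wobbler over wildtype was the widest array, with 13.9% of its log2 ratios above 2. A gene passed the test when its limma p, adjusted over all features by the Benjamini-Hochberg method, was under 0.05 in a comparison. Each ± is the standard error (SE) of this fit, which draws 1 spread per feature from all 12 arrays.

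In testis of Wobbler modifier mice, most of the 10 transcripts had lower values than in either other genotype, but few passed the test. Against wildtype, 7 of 10 were negative on all 4 arrays, against 10.4% of all features, and 9 of 10 had a negative fitted ratio, against 47.5% of all features. The median of the 10 was -0.58, and the median of all features was 0.01. In limma's test 0 of 10 passed, where 0.733% of all features did; at an unadjusted p under 0.05, 5 of 10 were lower, against 5.22% of all features. Against Wobbler, 5 of 10 were negative on all 4 arrays, against 6.13% of all features, and the medians were -0.37 for the 10 and 0.08 for all features. There too 0 of 10 passed in limma's test, against 0.414% of all features, and 4 of 10 were lower at an unadjusted p under 0.05, against 4.47%. Taking the mean of both modifier comparisons, which share the modifier genotype, 2 of 10 passed, Adam3 and Actl7a, both lower, against 1.68% of all features called lower. The fit counts the 8 arrays of that mean as independent. The labels do not say whether both comparisons share pools of modifier RNA, in which case its SE and p would be too small. At an unadjusted p under 0.05, 5 of 10 were lower on that mean, against 6.23% of all features. Adam3, Actl7a, Crisp2, Acrv1 and Capza3 were negative on all 8 arrays with modifier RNA, as were 2.94% of all features. In RNA of whole testis, fewer cells of a type and less RNA per cell cannot be told apart.

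**Figure D1:**
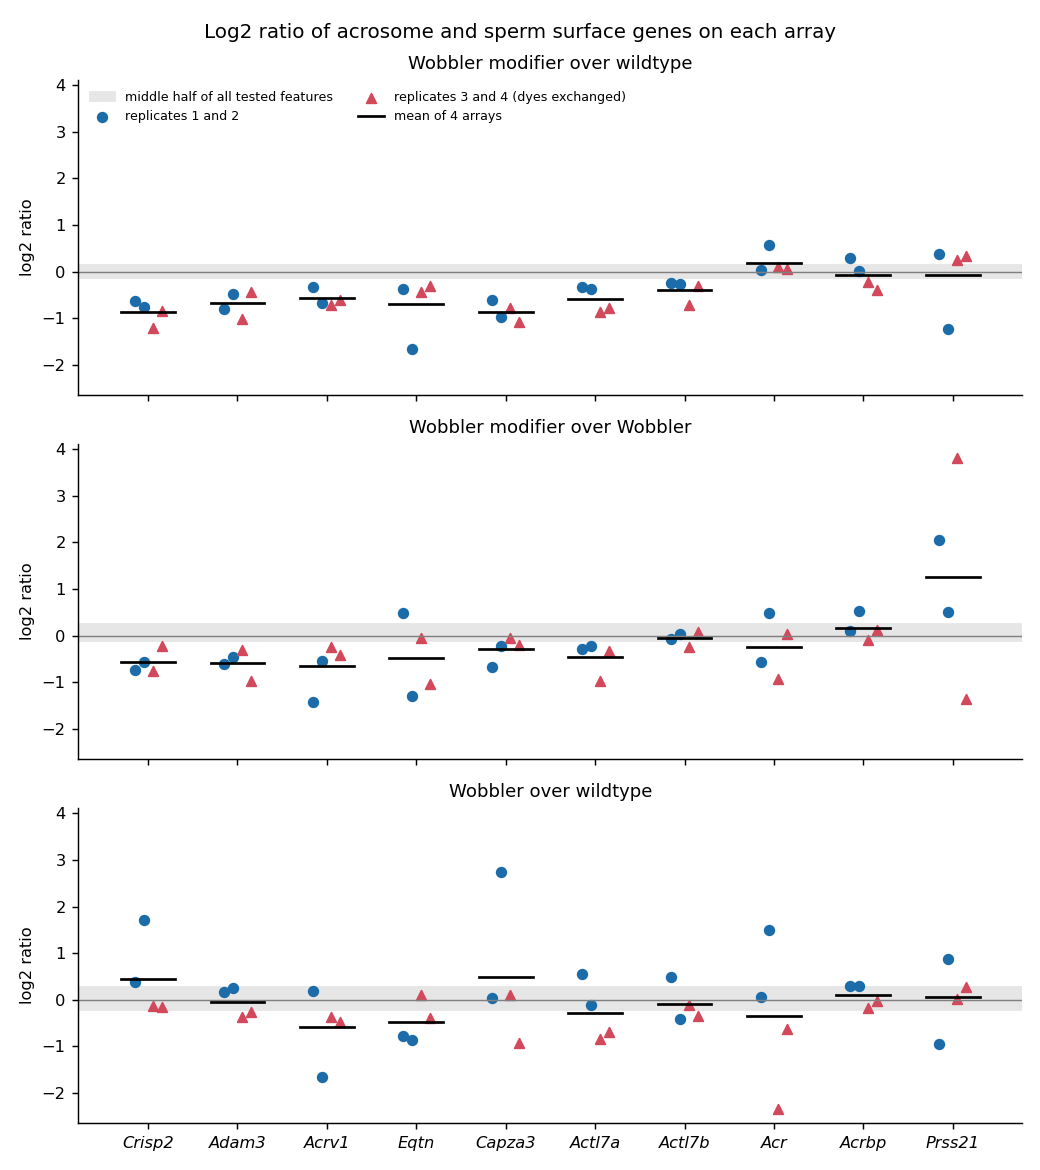
Log2 ratio (vertical axis) of each of the 10 genes (horizontal axis) on each of the 4 arrays of each comparison, 1 panel per comparison. Circles are replicates 1 and 2, triangles replicates 3 and 4 with exchanged dyes, black bars the mean of 4 arrays and the grey band the interquartile range of the fitted ratios of all features; the genes from Crisp2 to Actl7a lie below 0 on most modifier arrays, while Wobbler over wildtype scatters around 0.

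Of the proteins on the sperm surface, Adam3 (cyritestin) belongs to the disintegrin and metalloprotease family and is needed in mice for sperm to enter the oviduct and bind the egg coat. Its log2 ratios were -0.81, -0.47, -1.01 and -0.44 in Wobbler modifier over wildtype, and -0.62, -0.45, -0.32 and -0.97 in Wobbler modifier over Wobbler. In Wobbler over wildtype they were 0.18, 0.25, -0.38 and -0.27. The modifier arrays all lay below 0, and those of Wobbler over wildtype lay on both sides of 0. Over both modifier comparisons Adam3 fell by 0.64 ± 0.10 (SE, n = 8), or 1.55-fold, with a limma adjusted p of 0.0114. Within a dye orientation the mean was -0.59 on replicates 1 and 2 and -0.68 on replicates 3 and 4. Each comparison on its own did not pass, with -0.68 ± 0.15 against wildtype (limma adjusted p = 0.0893) and -0.59 ± 0.15 against Wobbler (limma adjusted p = 0.147). The call on the mean held in 24 of 26 alternatives, with adjusted p between 0.0025 and 0.919. It was lost without replicate 1 of Wobbler modifier over wildtype (adjusted p = 0.0532) and when the values were read as channel 1 over channel 2.

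Adam18 and Adam5, relatives of Adam3, are its coding neighbours on either side in the gene table of GRCm38.p6. Adam5 was at 0.03 ± 0.12 in Wobbler modifier over wildtype and 0.20 ± 0.12 in Wobbler modifier over Wobbler (SE, n = 4). Adam18 was at 0.02 ± 0.16 and 0.27 ± 0.16 in these comparisons. In Wobbler over wildtype Adam5 was at 0.60 ± 0.12 (limma adjusted p = 0.0935), with 0.92, 1.01, 0.27 and 0.20 on its arrays, and Adam18 was at 0.06 ± 0.16. Neither passed the test, and the difference from Adam3 was not tested. Prss21 encodes testisin, a serine protease anchored to the sperm membrane. It gave 0.37, -1.23, 0.26 and 0.34 against wildtype, and 2.05, 0.50, 3.81 and -1.35 against Wobbler. These arrays spread on both sides of 0, with an SD of 2.20 over the 4 arrays against Wobbler, the widest of any of the 10 genes in any comparison.

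Of the cytoskeletal proteins, Actl7a lies between the acrosome and the nucleus, and its loss in mice detaches the acrosome. Its log2 ratios were -0.32, -0.37, -0.86 and -0.78 in Wobbler modifier over wildtype, and -0.29, -0.22, -0.97 and -0.33 in Wobbler modifier over Wobbler. The Wobbler arrays gave 0.55, -0.12, -0.84 and -0.69 over wildtype. The modifier arrays all lay below 0 but overlapped those of Wobbler over wildtype. Over both modifier comparisons Actl7a fell by 0.52 ± 0.11 (SE, n = 8), or 1.43-fold, with a limma adjusted p of 0.0371. The dye orientations differed in size, with means of -0.30 on replicates 1 and 2 and -0.74 on replicates 3 and 4; in Wobbler over wildtype they were 0.21 and -0.77. The call held in 15 of 26 alternatives, with adjusted p between 0.0039 and 0.506. Leaving out any of the 4 arrays against wildtype, replicate 1, 2 or 3 against Wobbler, or replicate 4 of Wobbler over wildtype ended it, with adjusted p of 0.0539 to 0.133. It was also lost without the dye term (adjusted p = 0.195), with the replicate number as a block in its place (adjusted p = 0.0697) and in the channel reading (adjusted p = 0.506).

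Actl7b, also needed for male fertility in mice, had 4 values of -0.73 to -0.25 against wildtype and 4 of -0.25 to 0.07 against Wobbler. Its arrays lay below 0 against wildtype and around 0 against Wobbler, and the mean of both was -0.22 ± 0.10 (limma adjusted p = 0.425). Across the 12 arrays Actl7a and Actl7b had a Pearson r of 0.70, and across the 8 modifier arrays one of 0.68; the arrays of 1 dye orientation share a shift, so this is a description. Capza3, the testis form of the actin capping protein's alpha subunit, is needed in mice for a normal sperm head. It gave -0.61, -0.97, -0.79 and -1.09 against wildtype, and -0.68, -0.22, -0.05 and -0.19 against Wobbler. All were negative, the values against wildtype overlapping those against Wobbler at 1 array. Wobbler over wildtype gave 0.04, 2.74, 0.10 and -0.93. The array at 2.74 is the widest one, and the SE of 0.42 that all comparisons share includes it. Capza3 was at -0.86 ± 0.42 against wildtype (limma adjusted p = 0.767). It passed there when only the 8 modifier arrays were fitted, an alternative chosen after the data were seen. Without the wide array alone it passed on the mean of both modifier comparisons, as did Acrv1.

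Crisp2 encodes a cysteine-rich protein of the acrosome and the outer dense fibres of the tail. Its log2 ratios were -0.62, -0.76, -1.21 and -0.84 in Wobbler modifier over wildtype, and -0.75, -0.56, -0.76 and -0.23 in Wobbler modifier over Wobbler. In Wobbler over wildtype they were 0.37, 1.72, -0.13 and -0.16. The modifier arrays all lay below 0, and Wobbler over wildtype had 2 values on either side of 0, with replicate 2 again the highest. Over both modifier comparisons the value was -0.72 ± 0.17 (SE, n = 8; limma adjusted p = 0.0651), and it did not pass. Without replicate 2 of Wobbler over wildtype, Crisp2 passed both on that mean and against wildtype.

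Of the proteins inside the acrosome, Acrv1 had negative values on all 8 modifier arrays, -0.32, -0.67, -0.72 and -0.60 against wildtype and -1.42, -0.55, -0.25 and -0.41 against Wobbler. Wobbler over wildtype gave 0.20, -1.66, -0.37 and -0.48, overlapping the modifier arrays. The mean over both modifier comparisons was -0.62 ± 0.19 (SE, n = 8; limma adjusted p = 0.157). Its 2 probes differed. Probe 9353 was negative on 8 of 8 modifier arrays, at -0.73 ± 0.12, and passed when each probe was tested on its own (limma adjusted p = 0.0115). Probe 13751 was at -0.51 ± 0.30 and negative on 7 of 8.

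Acr encodes acrosin, the trypsin-like protease of the acrosome, and Acrbp the protein that binds its precursor there. Acr gave 0.03, 0.57, 0.09 and 0.05 against wildtype and -0.56, 0.48, -0.93 and 0.03 against Wobbler. It was the one gene of the 10 that was positive on all 4 arrays against wildtype, as were 8.69% of all features, and its fitted 0.19 ± 0.40 did not pass. That holds for the average of its probes only. Against wildtype probe 9472 was at -0.26 on replicate 1, and probe 9674 was at -0.27 on replicate 4. Probe 9472 had a value on 3 of 4 arrays against wildtype and 2 of 4 against Wobbler, so the 2 probes did not enter every array alike. Against Wobbler probe 9472 averaged -1.73 on those 2 arrays, and probe 9674 averaged 0.25 on 4. The gene ran from -2.34 to 1.49 in Wobbler over wildtype. Acrbp had the smallest SEs of the 10, with -0.08 ± 0.11 against wildtype and 0.16 ± 0.11 against Wobbler (SE, n = 4). Its 95% interval for the mean of both was -0.13 to 0.21. Acr and Acrbp therefore had values on both sides of 0.

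Eqtn encodes equatorin, a membrane protein of the acrosome that takes part in sperm-egg fusion. It gave -0.37, -1.67, -0.43 and -0.31 against wildtype and 0.48, -1.29, -0.06 and -1.03 against Wobbler. The values were all negative against wildtype and mixed against Wobbler, and the mean of both was -0.58 ± 0.22 (SE, n = 8; limma adjusted p = 0.276). Its probes differed in size and in places in sign: probe 13775 averaged -1.51 on 3 arrays against wildtype, and probe 11009 averaged -0.17 on 4. On replicate 2 against wildtype, probe 13775 was at -3.37 and probe 11009 at 0.04. In Wobbler over wildtype probe 13775 averaged -1.93 on 2 arrays, and probe 11009 averaged 0.07 on 4.

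**Figure D2:**
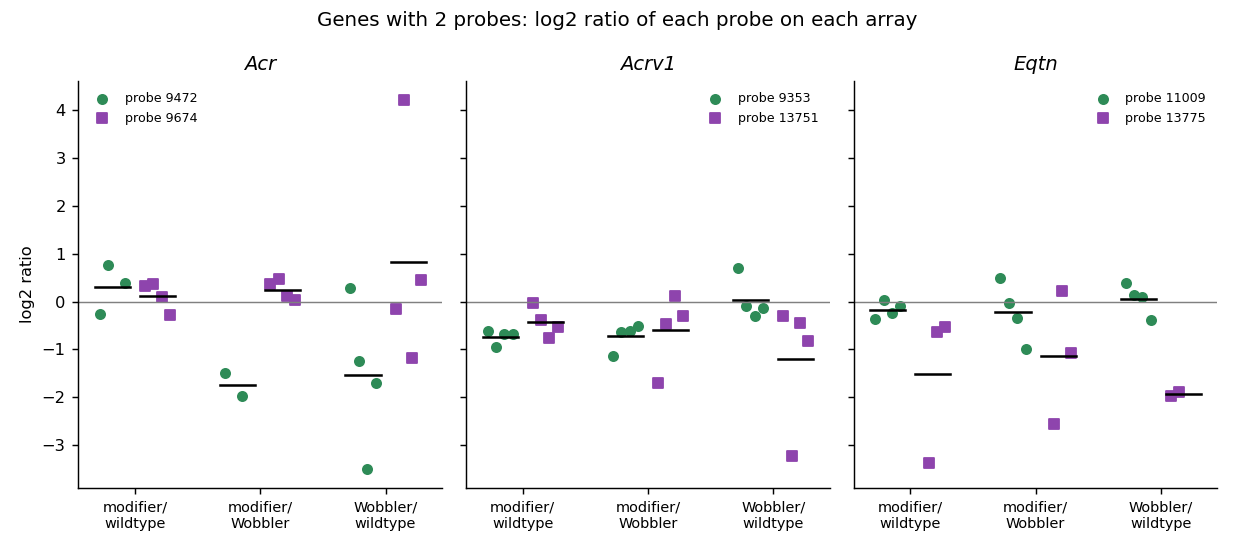
Log2 ratio (vertical axis) of each probe on each array for the 3 genes with 2 probes, Acr, Acrv1 and Eqtn, by comparison (horizontal axis). Circles and squares are the 2 probes and black bars their means; probe 9353 of Acrv1 stays below 0 on all 8 modifier arrays, and the probes of Acr and Eqtn lie far apart in places.

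In Wobbler over wildtype, 0 of 10 genes passed in limma's test, against 0.306% of all features, and 0 of 10 had an unadjusted p under 0.05, against 15.7%. Of the 10, 0 were negative on all 4 arrays, against 10.8% of all features, and 0 were positive on all 4, against 6.03%. The median of the 10 was -0.08, and that of all features was -0.01. Fitted ratios ran from -0.58 for Acrv1 to 0.49 for Capza3. These ends moved with single arrays of this comparison: Acrv1 was at -0.22 without replicate 2 and -0.92 without replicate 1, and Capza3 at -0.25 without replicate 2, 0.76 without replicate 1 and 0.92 without replicate 4. The low end also came from 1 probe of Acrv1, as probe 13751 averaged -1.20 and probe 9353 averaged 0.04. On replicate 2 these probes were at -3.22 and -0.09. The medians of the 10 on single arrays were 0.19 and 0.28 on replicates 1 and 2, and -0.15 and -0.37 on replicates 3 and 4. The medians of all features moved the same way, 0.12, 0.04, -0.23 and -0.10. The sign of the 10 genes' median in Wobbler over wildtype thus followed the dye orientation, while all 8 modifier arrays had medians below 0, from -0.72 to -0.22.

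The 3 comparisons form a closed loop, so the direct ratio of Wobbler modifier over wildtype can be set against the sum of the other pairs. For Adam3 the direct value was -0.68 and the sum -0.65, and for Actl7a they were -0.58 and -0.73. Crisp2 had -0.86 directly and -0.12 by the sum, and Capza3 had -0.86 and 0.20. Both sums rest on the wide array: without replicate 2 of Wobbler over wildtype they were -0.51 for Crisp2 and -0.54 for Capza3, and the direct values did not move. The largest difference was that of Prss21, at -0.07 directly and 1.30 by the sum. Signs also differed for Acr, at 0.19 and -0.60, and for Acrbp, at -0.08 and 0.26. Without the wide array the sums of Prss21, Acr and Acrbp were 0.94, -1.11 and 0.25. In limma's test of the difference 0 of 10 passed, against 0.0272% of all features, and 0 of 10 had an unadjusted p under 0.05, against 6.96%. The intervals were wide: for Crisp2 the difference was -0.73, with a 95% interval of -1.67 to 0.20.

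**Figure D3:**
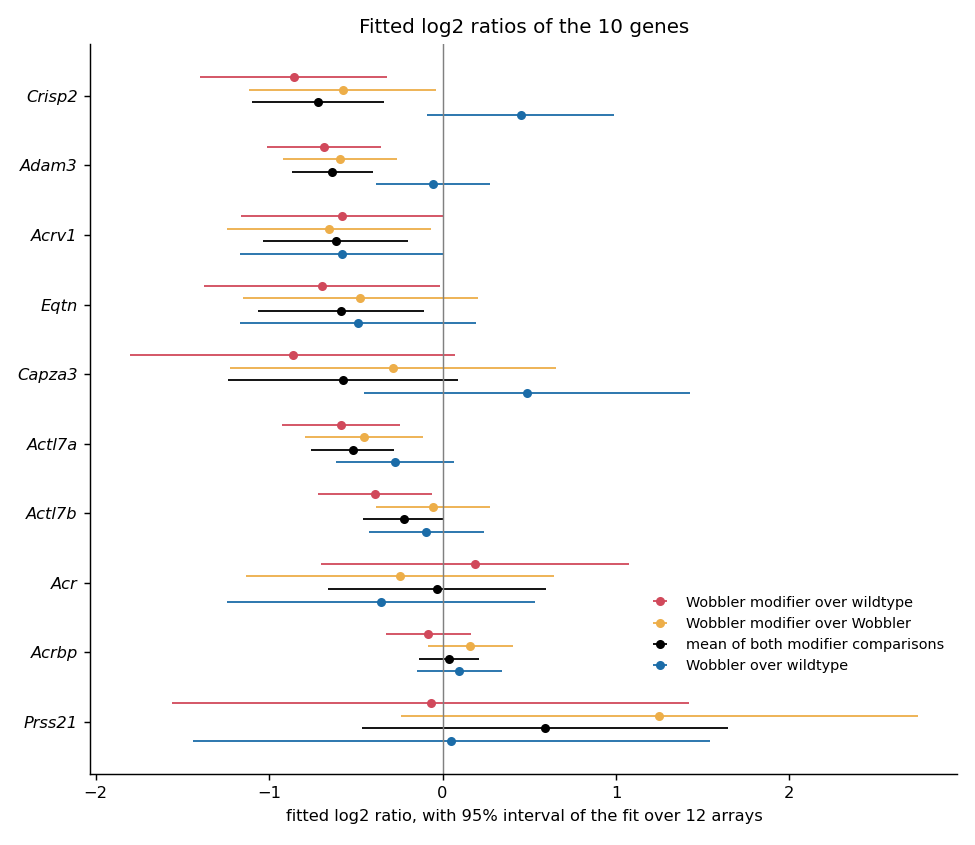
Fitted log2 ratio (horizontal axis) of each of the 10 genes (vertical axis) with the 95% interval of the fit over 12 arrays, for each comparison and for the mean of both modifier comparisons. The intervals of that mean lie below 0 for Crisp2, Adam3, Acrv1, Eqtn and Actl7a, and those of Wobbler over wildtype include 0 for all 10 genes.

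Pairs of the 10 genes differed widely in how alike they were from array to array. The highest pairwise Pearson r over 12 arrays was 0.89, for Crisp2 and Capza3, and that pair was at 0.55 over the 8 modifier arrays, which leave out the wide array. The highest over those 8 was 0.91, for Actl7b and Crisp2, a pair at 0.22 over 12. Acrbp and Actl7a had 0.75 over 12 arrays and 0.79 over 8. Adam3 and Crisp2 had 0.75 over 12 arrays and -0.02 over 8. Acr and Eqtn ran opposite, at -0.66 over 12 and -0.83 over 8. Arrays may share RNA pools, and those of 1 orientation share a dye shift, so these are descriptions.

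Related genes of the acrosome and spermatid did not all share the 10 genes' values. Of 24 other tested genes of the acrosome, 0 passed in limma's test against wildtype and 0 against Wobbler, where 2 and 2 were lower at an unadjusted p under 0.05; their medians were -0.12 and 0.01. The lists named here share a few genes with each other, such as Spaca1, and none with the 10. On the mean of both modifier comparisons 1 passed, Spaca9, at -0.85 ± 0.18 (limma adjusted p = 0.0404). This call held in 15 of 26 alternatives, with adjusted p between 0.0048 and 0.875. It was lost without any 1 of the 4 arrays against wildtype, replicate 1, 2 or 3 against Wobbler or replicate 4 of Wobbler over wildtype (adjusted p of 0.0567 to 0.118), with the replicate block, with only the 8 modifier arrays and in the channel reading. Spaca1, an acrosomal membrane protein, was at -0.51 ± 0.14 against wildtype (limma adjusted p = 0.220), Zp3r, an acrosomal matrix protein, at -0.30 ± 0.17 and Calr3, a spermatid chaperone, at 0.46 ± 0.22. Of 9 other genes of the Adam family and its partners in testis, 0 passed in either comparison, also at an unadjusted p under 0.05, with medians of -0.02 against wildtype and 0.03 against Wobbler; against wildtype Adam1a, of the fertilin family, was at -0.65 ± 0.31, Adam30 at -0.91 ± 0.70 and Adam29 at -0.25 ± 0.33. Of 16 other serine proteases and their inhibitors 1 fell on the mean, Prss39, an acrosomal protease, by 0.51 ± 0.08 (limma adjusted p = 0.0121); their medians were -0.19 and -0.12. The Prss39 call held in 23 of 26 alternatives and was lost without replicate 1 or replicate 2 of Wobbler modifier over wildtype (adjusted p = 0.0579 for each) and in the channel reading. Serpina5, an inhibitor of acrosin, was at -0.85 ± 0.26 against wildtype, Prss52 at -0.998 ± 0.41 and Prss37, a protease-like protein of spermatids, at -0.33 ± 0.16, and none of these 3 passed. Of 14 other actin-related and capping genes 0 passed, with 3 and 3 lower at an unadjusted p under 0.05 and medians of -0.16 and -0.19. Actrt3, an actin-like protein of spermatids, was at -0.83 ± 0.24 against wildtype (limma adjusted p = 0.257). Capzb, the beta subunit that pairs with Capza3, was at -0.51 ± 0.16, Actrt2 at -0.37 ± 0.16 and Ccin, a protein of the sperm head skeleton, at -0.60 ± 0.29. Of 3 other genes of the Crisp2 protein family 0 passed, also at an unadjusted p under 0.05; against wildtype Pi16 was at 0.41 ± 0.25, Glipr2 at 0.20 ± 0.36 and Crispld2 at -0.02 ± 0.18. Several uncalled values of these lists against wildtype moved with single arrays. With 1 array left out in turn, Actrt3 ran from -1.07 to -0.42, Serpina5 from -1.20 to -0.51, Prss52 from -1.20 to -0.55, Adam30 from -1.49 to -0.56 and Adam29 from -0.34 to -0.14. Ccin ran from -0.84 to -0.36, Capzb from -0.62 to -0.31, Zp3r from -0.44 to -0.19 and Calr3 from 0.27 to 0.69.

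Of 21 genes that act in building the acrosome, 1 fell, Fam209, which in mice anchors the acrosome together with Dpy19l2, by 0.72 ± 0.12 against wildtype (limma adjusted p = 0.0233) and by 0.74 ± 0.12 against Wobbler (limma adjusted p = 0.0332). The call against wildtype held in 18 of 27 alternatives and was lost without any 1 of its own 4 arrays (adjusted p of 0.0882 to 0.213). That against Wobbler held in 13 of 27 and was lost without any 1 of its own 4 arrays (0.0793 to 0.145), any 1 of the 4 against wildtype (0.0572 to 0.0756) or replicate 4 of Wobbler over wildtype (0.0552). Both were lost without the dye term, with the replicate block, with each comparison fitted alone, with only the 8 modifier arrays and in the channel reading. On the mean of both modifier comparisons Fam209 was at -0.73 ± 0.08 (limma adjusted p = 0.0015), a call that held in 25 of 26 alternatives, all but the channel reading. The list's medians were -0.01 and 0.01, and 3 and 2 of its genes were lower at an unadjusted p under 0.05. At that limit 0 were higher against wildtype and 3 against Wobbler. In Wobbler over wildtype 0 were lower and 4 higher. Spata16 and Hook1, whose loss in mice or humans deforms the sperm head, were at -0.74 ± 0.26 and -0.29 ± 0.13 against wildtype and did not pass.

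**Figure D4:**
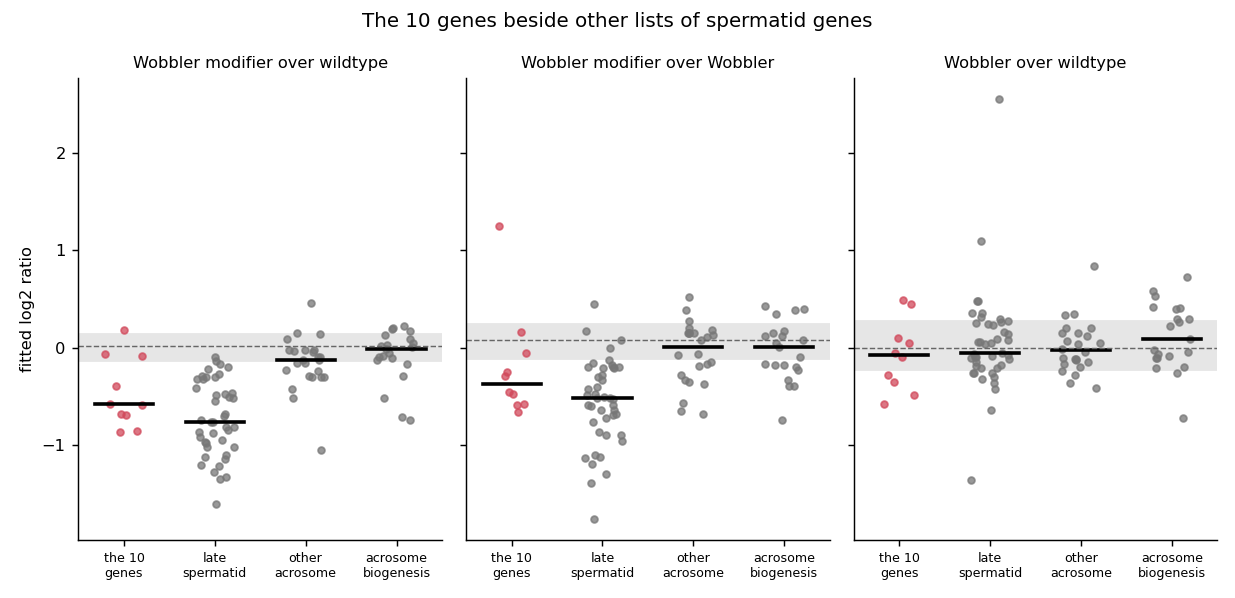
Fitted log2 ratio (vertical axis) of the 10 genes, of late spermatid genes, of other acrosome genes and of genes that build the acrosome (horizontal axis), 1 panel per comparison. Each point is a gene, black bars are list medians and the grey band is the interquartile range of all features; the medians of the 10 genes and of the late spermatid genes lie lower than those of the other lists in both modifier comparisons.

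Markers of other stages and cell types moved beside these results. Of 43 late spermatid genes, 15 fell against wildtype and 7 against Wobbler, where 103 and 44 of all 14729 features were called lower. On the mean of both 22 fell, against 1.68% of all features. In Wobbler over wildtype 0 passed, against 0.306% of all features. There 6 had an unadjusted p under 0.05 (2 lower, 4 higher), against 15.7% of all features. The late spermatid medians were -0.76, -0.52, -0.66 and -0.05. The late spermatid genes that fell against wildtype were Prm1, Prm2, Tnp1, Tnp2, Hils1, H1f7, Smcp, Oaz3, Pgk2, Gsg1, Dbil5, Spz1, Cypt1, Ropn1 and Gstm5. Of 11 Leydig cell genes, 2 fell against wildtype and 2 against Wobbler, with medians of -0.46, -0.50 and 0.08 in Wobbler over wildtype; on single arrays the Leydig median ran from -1.24 to -0.03 in the modifier comparisons. Cyp17a1, a steroid enzyme, fell in both, Ephx1 against wildtype and Gsta4 against Wobbler. With each comparison fitted alone, 4 features of any kind passed against wildtype and 0 against Wobbler. The late spermatid and Leydig calls against Wobbler were thus lost there, and at most 4 of those against wildtype held. Spermatocyte genes had medians of -0.07 and 0.17 in the modifier comparisons, spermatogonial genes 0.12 and 0.03, Sertoli cell genes -0.12 and -0.03, macrophage genes -0.22 and -0.18, and genes of peritubular cells and vessels 0.09 and 0.07. Genes of the epididymis had -0.15 and 0.08, and of blood -0.04 and 0.00. The part of cell makeup in the values of the 10 genes was not tested.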

How the data were processed

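Testis RNA of Wobbler modifier, Wobbler and wildtype males was compared on 12 two-colour arrays. The values are log2 ratios as the authors deposited them; base 2 was inferred from ratios of small whole numbers among the values, and the labels name no scanner, background correction or normalization. Depth has no counterpart on these arrays, and the number of arrays limits the precision. On each array 1 repeated value, log2(100000) above an additive shift, seems to stand for spots with no usable second channel and was set to missing (22 to 165 spots). Read as Cy5 over Cy3, the loop of the 3 comparisons correlated at 0.193 over 14975 probes; read as channel 1 over channel 2, at 0.0921. Dye-exchanged arrays were therefore multiplied by -1.

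The platform annotation gave 1 gene symbol for 14030 of 20355 probes, several for 5 and none for 6320. Gene identifiers were matched to a gene table of GRCm38.p6, which lacked those of 36 probes. Probes of a symbol were averaged, and a feature was tested if every comparison had values for it on 3 or more of its 4 arrays. limma 3.58.1 (R 4.3.3; lmFit, eBayes) was run with 1 mean per comparison and a dye term. The fit was tested on simulated data. The SE of a gene comes from all 12 arrays, and intervals are those of the fit.

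The 10 genes, the lists beside them and the tests were chosen with earlier results of these data known. The text names each of the 10 genes, genes of each related list past the threshold or, up to 4, with the smallest p against wildtype, and the 8 genes with the most similar profile. Late spermatid genes past the threshold against Wobbler or on the mean are given as counts. Same-numbered arrays of different comparisons had residual correlations of -0.343 to 0.0895 (12 pairs), and the numbers were not taken as pairs. These arrays share a dye orientation, and fitting the dye term itself pushes such residuals apart. The values therefore cannot decide whether the numbers are pairs. Differently numbered arrays ran from -0.30 to 0.30 (36 pairs). Replicate 2 of Wobbler over wildtype was at 0.29 and 0.30 with replicates 3 and 4 of Wobbler modifier over wildtype. Fitting the dye term also draws residuals of opposite orientation together. Whether arrays share deviations that the dye term leaves can therefore not be told from these values. The alternatives tried other filters, weights, models and sets of arrays, another reading of the ratio, centred or scaled arrays, and no dye term.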

Additional observations from a re-analysis of the deposited data

Results flagged for a closer look

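For each of the 10 genes and each comparison, the 4 arrays were searched for 1 array far from the other 3, by Dixon's criterion on its gap to the nearest as a share of the whole range. This held in 5 of 30 sets of arrays. The criterion's nominal rate of about 1 in 20 is for normal values in separate sets, while these sets share the same arrays. The share over all features was not computed, so the count is not a result about these genes. In Wobbler modifier over wildtype, replicate 2 stood apart for Eqtn at -1.67 (the nearest other array was at -0.43), for Prss21 at -1.23 (0.26) and for Acr at 0.57 (0.09). Replicate 3 stood apart for Actl7b there, at -0.73 (-0.30). In Wobbler modifier over Wobbler, replicate 3 stood apart for Actl7a at -0.97 (-0.33). For Eqtn and Acr the flagged values are averages of probes that did not enter every array. On replicate 2 against wildtype, Eqtn probe 13775 was at -3.37 and probe 11009 at 0.04. Acr probe 9472 had no value on replicate 3 against wildtype.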

How the results depend on the processing

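Against wildtype 0 of 10 genes passed, beside 108 of 14729 features. After scaling the arrays to equal spread 3 passed (Actl7a, Adam3, Crisp2), beside 483 features. With array weights 5 passed (these, Actl7b and Capza3), beside 709. With 2 genotype coefficients for the loop 2 passed (Actl7a, Adam3), beside 224. With only the 8 modifier arrays, chosen after the data were seen, 1 passed (Capza3), beside 109. With 1 array left out in turn 0 to 1 passed, beside 19 to 163 features. The 1 was Crisp2, without replicate 2 of Wobbler over wildtype. Against Wobbler the count was 0, beside 61 features, and became 1 (Adam3) with 2 genotype coefficients, beside 210. On the mean of both modifier comparisons 2 passed, beside 341 features. The count was 4 after scaling (beside 664 features), 4 with array weights (675) and 4 with only the 8 modifier arrays (393). It was 1 without the dye term (Adam3, beside 179 features), and 0 in the reading as channel 1 over channel 2. With 1 array left out in turn it was 0 to 5. It was 0 without replicate 1 of Wobbler modifier over wildtype (beside 154 features) and 5 without replicate 2 of Wobbler over wildtype (513). With the replicate number as a block in place of the dye term it was 1 (Adam3).

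Read as channel 1 over channel 2, the medians of the 10 were 0.0971 against wildtype, 0.0433 against Wobbler and 0.235 in Wobbler over wildtype, and Actl7a (0.22), Adam3 (0.0474), Prss39 (0.15) and Fam209 (0.12 against wildtype, 0.29 against Wobbler, 0.20 on the mean) lost their negative sign; here the dye-exchanged arrays are not turned. The median against Wobbler was -0.25 with each probe on its own, -0.27 without dim spots, and -0.46 to -0.22 with 1 array left out. That against wildtype was -0.58 to -0.48 and that in Wobbler over wildtype -0.22 to 0.07 with 1 array left out.

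Over all features the calls against wildtype, against Wobbler, in Wobbler over wildtype and on the mean were 108, 61, 45 and 341. They were 483, 73, 23 and 664 after scaling, 709, 59, 22 and 675 with array weights, 46, 7, 24 and 179 without the dye term, 58, 24, 22 and 190 with the replicate block, 165, 110, 87 and 525 with each probe on its own, and 0, 0, 0 and 1 in the channel reading. Each comparison fitted alone gave 4, 0 and 0. With 1 array left out they were 19 to 163, 6 to 137, 18 to 54 and 154 to 513. Among 2068 values of single genes under the alternatives, 1899 kept sign and side of the threshold, 47 gained a call, 45 lost one, 71 changed sign without a call and 6 reversed. The causes were not tested.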

Other observations

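The genes outside the 10 whose log2 ratios most resembled their mean profile over the 12 arrays were Rabgef1 (Pearson r = 0.93), Ace3 (0.92), Timm22 (0.92), Apoa4 (0.92), Tm9sf4 (0.91), Armt1 (0.90), Ubxn4 (0.90) and 1700028P14Rik (0.90), among 12635 features with a value on every array. Without replicate 2 of Wobbler over wildtype the same r values ran from 0.77 (1700028P14Rik) to 0.87 (Tm9sf4). Single genes can carry the mean profile. On replicate 3 of Wobbler modifier over Wobbler it was at 0.01 though 9 of the 10 genes were negative, with Prss21 at 3.81. The r values are a description, since arrays may share RNA pools and those of 1 orientation share a dye shift.

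Among genes of other cell types, Tyrobp, a signalling adaptor of macrophages, fell by 0.68 in Wobbler modifier over wildtype, and Syce2, of the synaptonemal complex of meiotic cells, fell by 0.94. In Wobbler over wildtype H1f6, a testis linker histone, fell by 1.14 and Serpina1f, an epididymal serpin, fell by 1.15. On the mean of both modifier comparisons Gata1, a transcription factor of Sertoli cells, rose by 0.56, and Aif1, of macrophages, fell by 0.41. Each passed in limma's test at an adjusted p under 0.05. In Wobbler over wildtype 0 features of any kind passed with each comparison fitted alone, and 0 with 2 genotype coefficients for the loop. The calls of H1f6 and Serpina1f were thus lost in both. In Wobbler over wildtype the spermatocyte list had a median of -0.02, with 1 gene lower and 3 higher at an unadjusted p under 0.05, and the epididymis list one of -0.30, with 1 lower and 0 higher. On the mean of both modifier comparisons the median was -0.17 for Sertoli cell genes and -0.13 for macrophage genes.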
